A study of Drosophila melanogaster with 12 samples.

Results

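Ovaries of su(Hw)Pb/2 females were compared with ovaries of Canton S females, with 3 arrays of each genotype among the 12 arrays of the study. The Pb/2 flies carried the su(Hw) alleles e04061 and 2 in trans, on a background with the X-linked alleles y2, w67c23, ct6 and f1. Canton S is a wild-type strain whose label lists no marker allele, so the su(Hw) alleles and the marked X chromosome could not be told apart from each other or from other strain differences by this comparison alone. All females were virgins dissected between 4 and 6 h after eclosion, and each biological replicate pooled about 100 pairs of ovaries. At that age, per the labels, no egg chamber is older than stage 8, and mutant egg chambers die by apoptosis at stage 9, so the comparison addresses transcript levels before that death.

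The other mutant and the other wild type of the study served as a second pair that shares no array with Pb/2 and Canton S. A2663/v carried su(Hw)A2663 over an allele that its genotype label gives as su(Hw)2 and its source label as v, together with the same marked X and a P element in CG6499 (now Amt). BL15598, its wild-type counterpart, was a y1 w67c23 stock with that P element. By the genotype labels, the mutants therefore also have the allele su(Hw)2 in common.

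Su(Hw), suppressor of Hairy-wing, is a zinc-finger DNA-binding protein first known from the insulator of the gypsy retrotransposon, where it acts with Cp190 and Mod(mdg4). The alleles y2, ct6 and f1 are gypsy insertions, and loss of su(Hw) is known to suppress their phenotypes. In the ovary Su(Hw) is also known as a repressor of neuronal genes, and its loss makes females sterile.

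Each gene was represented by the probe set, naming that gene alone, with the highest mean signal, and a gene was tested when 3 or more of the 6 arrays read over log2 5. This left 6009 of the 11983 genes on the array. Values are log2 signals after GCRMA, which pulls unexpressed probe sets to low values, so 5 was taken as a floor below which signals have no order. At the edge of the filter, CG1092 passed with a third-highest value of 5.00305 and CG13282 was left out at 4.99985. A call required a limma adjusted p under 0.05 together with a 2-fold or larger change, and changes are Pb/2 minus Canton S. Where all 3 arrays of the dimmer genotype lay under the floor, the fold is given as a lower bound, computed with values under 5 raised to 5. Of the genes tested, 69 passed the filter through Pb/2 alone, with no Canton S array over the floor, and 51 through Canton S alone. For these the filter itself fixed the direction, so counts over a list that holds them describe the list and support nothing about it. Their calls likewise only describe them, and an adjusted p drawn from values under the floor is no support for the direction.

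The arrays read as ovary in both genotypes, with markers of other tissues besides. All 4 germline markers on the array, osk, orb, aub and bam, were over the floor on all 6 arrays, as were 3 of 5 follicle cell markers. How much other tissue the dissections carried was not tested. Also over the floor on all 6 arrays were 5 of 5 fat body markers and 2 of 4 muscle and sheath markers. Of the neuronal markers only elav was over it (1 of 4), with nSyb, brp and para at 2.50 or less on every array. The mean over these 4 was 2.89 to 3.03 in Pb/2, against 3.12 to 3.23 in Canton S. Only bam was over it among 6 testis markers. In bulk tissue, fewer cells of a type and less RNA per cell cannot be told apart. Across the genes tested, the Pearson correlation was 0.975 to 0.992 within a genotype and 0.915 to 0.940 between Pb/2 and Canton S arrays.

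Digestive enzyme genes set the Pb/2 arrays apart from each other. Their mean log2 signal over 10 genes was 6.98, 7.78 and 3.70 in Pb/2, against 3.55, 3.57 and 4.62 in Canton S. Replicates 1 and 2 of Pb/2 were thus high and replicate 3 was not (exact permutation p = 0.2, adjusted 0.375 over 5 measures). Of 39 listed genes on the array, the 10 averaged were over the floor on 3 or more arrays of the study, mutants included. Jon44E, Mal-A2, Mal-A6 and lambdaTry were over it on Pb/2 and A2663/v arrays only. The choice of genes thus partly sets the mean, and no difference between genotypes is read from it or its p-value. The same mean served as the covariate below. The difference between 3′ and 5′ probe sets of eIF-4A, a measure of RNA integrity, was 2.98, 3.17 and 3.30 in Pb/2, against 2.20, 2.06 and 3.05 in Canton S, where replicate 3 stood with the mutant. With the digestive signal as a covariate 316 genes were called, among them 293 of the 329 called without it; the calls of CG5399, CG12998 and CG7203 were among those lost. The part of eIF-4A integrity in the results was not tested. Where leaving out Pb/2 replicates 1 and 2 changed the call of a gene described below, this is stated with that gene.

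The su(Hw) transcript was at background in the mutant. Its signal was 2.72, 2.66 and 3.42 in Pb/2, against 9.30, 9.19 and 9.13 in Canton S. It averaged 2.94 ± 0.42 in Pb/2 and 9.21 ± 0.09 in Canton S (SD, n = 3 each), at least 18.5-fold lower in the mutant. An exact two-sided permutation test gave p = 0.1, the smallest that 20 splits of 6 arrays allow. In A2663/v it was likewise at 2.51 to 2.63, against 8.78 to 9.03 in BL15598.

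Among the marker genes, f (forked, which bundles actin in growing bristles) was much higher in the mutant. Its signal was 8.97, 8.76 and 8.44 in Pb/2, against 4.59, 4.43 and 4.50 in Canton S. That was at least 13.2-fold higher, by the 1 of its 2 probe sets over the floor, and f passed the filter through Pb/2 alone. The A2663/v mean, 8.18, stood with Pb/2 and the BL15598 mean, 4.60, with Canton S. For ct, a homeodomain protein of follicle cells and sensory organs, the signal was 7.91, 7.70 and 6.74 in Pb/2, against 8.13, 8.36 and 8.24 in Canton S. That change of -0.79 (adjusted p = 0.0181) was under 2-fold but was called without Pb/2 replicate 1, at -1.02, and without Pb/2 replicates 1 and 2, at -1.51. No array read over the floor for y or for Amt, and w was not analysed here.

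Over all genes, 329 of 6009 were called (5.48%). Of these, 177 were higher in Pb/2 (2.95% of those tested) and 152 lower (2.53%). The median log2 change was 2.05 for the rises and -1.42 for the falls. These medians include signals under the floor, so their sizes depend partly on how background was set. At adjusted p alone the balance was the other way, with 603 genes higher (10.0%) and 1133 lower (18.9%). The median change of all genes tested was -0.07.

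Many rises started from no measurable signal. In 63 of the 177 rises Canton S was under the floor on all 3 arrays, and in 36 of the 152 falls Pb/2 was. With values under 5 raised to 5, 64 rises and 22 falls still changed by log2 2 or more, and 19 rises and 6 falls by log2 3 or more. The Pb/2 and Canton S arrays did not overlap in 171 of the 177 rises and 150 of the 152 falls; over all genes tested, Pb/2 lay wholly above Canton S in 13.0% and wholly below in 25.7%. Genes known only by a CG number made up 44.6% of the rises and 44.7% of the falls, beside 31.2% of the genes tested.

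**Figure D1:**
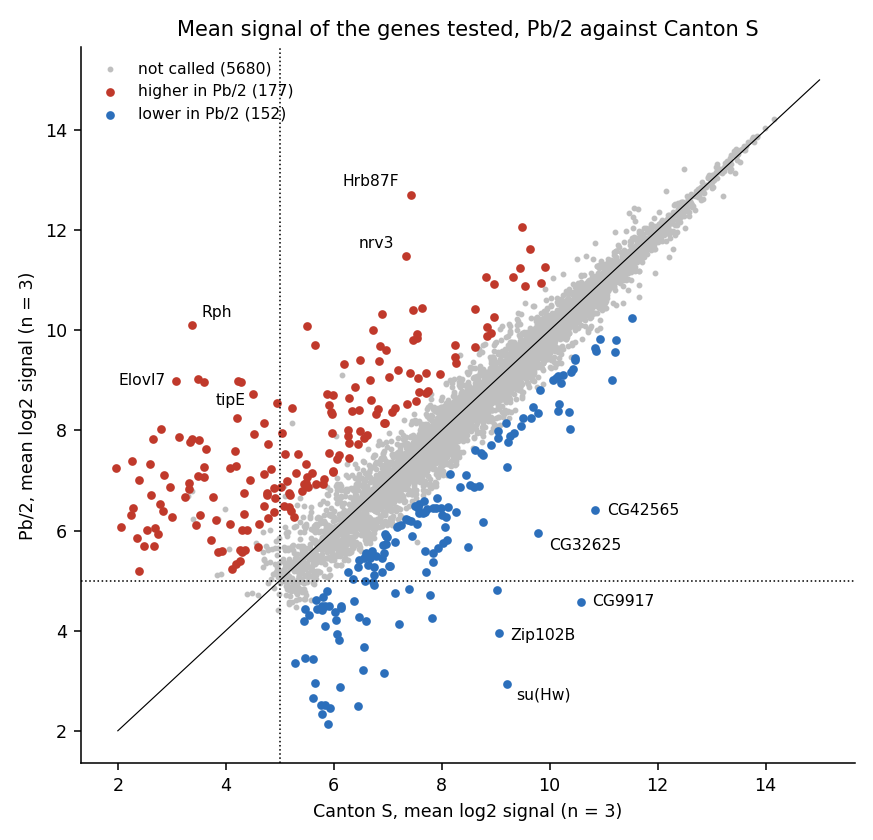
Mean log2 signal of the 6009 genes tested in Pb/2 (vertical axis) against Canton S (horizontal axis), n = 3 each. Red points are the 177 genes called higher in Pb/2 and blue points the 152 called lower; dotted lines mark the floor at log2 5 and the diagonal marks equal signal. A group of rises from under the floor in Canton S lies at the left, with Rph, Elovl7 and tipE, and su(Hw), Zip102B and CG9917 lie lowest among the falls from high signal.

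Rph, CanB, tipE and nrv3, which code for proteins known from neurons, were among the 15 genes with the largest rise after flooring. The first 3 were at background in Canton S. Rph (rabphilin, a Rab-binding protein of synaptic vesicles) had signals of 9.81, 10.33 and 10.18 in Pb/2, against 3.49, 3.26 and 3.37 in Canton S. It was at least 34.5-fold higher, and it passed the filter through Pb/2 alone.

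CanB (the regulatory subunit of the calcium-dependent phosphatase calcineurin) had 8.93, 9.06 and 9.07 in Pb/2, against 3.40, 3.50 and 3.54 in Canton S, at least 16.3-fold higher. tipE (an auxiliary subunit of voltage-gated sodium channels) had 8.64, 9.28 and 8.97 in Pb/2, against 3.48, 3.42 and 3.88 in Canton S, at least 15.6-fold higher. Both were thus under the floor on every Canton S array and far over it on every mutant array. nrv3 (a nervous-system beta subunit of the Na,K-ATPase) had 11.33, 11.77 and 11.36 in Pb/2, against 6.89, 6.82 and 8.29 in Canton S, a change of 4.16 ± 0.38 (SE). It was measurable in Canton S, with replicate 3 the highest.

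Of 25 synaptic vesicle and active zone genes on the array 11 could be tested, 2 with a rise and none with a fall (2.95% and 2.53% of all genes tested). Both risers, Rph and Nlg2, passed through Pb/2 alone, so nothing is read from that share. Nlg2 (a neuroligin, a synaptic adhesion protein) had 7.25, 6.92 and 7.10 in Pb/2, against 3.49, 3.599 and 3.37 in Canton S, at least 4.25-fold higher. The list's median change was -0.07, near that of all genes tested. unc-13, the vesicle priming factor, changed by -0.44 and Rop, the Sec1 homologue, by -0.23, with neither called. The lowest change in the list was -0.98. With adjusted p under 0.05 and no fold minimum, 2 members were higher and 3 lower (10.0% and 18.9% of all genes tested).

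Of 33 neuronal ion channel genes on the array 8 could be tested, 4 with a rise and none with a fall (2.95% and 2.53% of all genes tested). They were tipE, NaCP60E, SK and sei. Of these tipE and NaCP60E passed through Pb/2 alone, so nothing is read from that share either. With adjusted p under 0.05 and no fold minimum, 4 members of the list were higher and 2 lower (10.0% and 18.9% of all genes tested). The lowest change was -0.83. NaCP60E (a voltage-gated cation channel of the sodium channel family) had 7.56, 8.03 and 7.70 in Pb/2, against 3.35, 3.37 and 3.28 in Canton S, at least 6.79-fold higher. Unlike Rph, CanB and tipE, it was also measured in the other wild type, with a mean of 8.06 in A2663/v and 7.10 in BL15598. The changes of the genotype pairs differed by 3.47, a size that depends on how the Canton S background was set. SK (a calcium-activated potassium channel) changed by 1.30 ± 0.26 and sei (an ERG-type potassium channel) by 1.03 ± 0.15 (SE). Neither was called without Pb/2 replicates 1 and 2, where SK stood at 1.07 (adjusted p = 0.0681) and sei at 0.68. The call of sei was also lost without Pb/2 replicate 1, Pb/2 replicate 2 or Canton S replicate 2 alone, at 0.93 to 0.98.

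Ace (acetylcholinesterase, which ends cholinergic transmission) was the single member of the transmitter list that passed the filter. It had 6.63, 6.85 and 6.498 in Pb/2, against 4.30, 4.73 and 5.68 in Canton S, a change of 1.75 ± 0.27 (SE). The Canton S arrays straddled the floor, and with raised values the change was 1.43. Of the 11 calcium and calcineurin signalling genes only CanB was called. AstC, a neuropeptide, did not pass the filter, with 8.37, 7.38 and 4.71 in Pb/2, against 2.581, 2.583 and 2.63 in Canton S. It was over the floor on the 2 arrays with high digestive enzyme signal; whether the signal moves AstC was not tested.

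Among neural RNA-binding and fate genes, 2 of 6 rose and 1 fell (2.95% and 2.53% of all genes tested). Hesr (a basic helix-loop-helix protein of the Hairy/E(spl) class) had 8.79, 8.02 and 7.61 in Pb/2, against 4.01, 5.27 and 4.86 in Canton S, a change of 3.43 ± 0.34 (SE). Rbp9 (an RNA-binding protein of the ELAV family with a role in female germ cells) had 11.17, 11.11 and 10.92 in Pb/2, against 9.09, 9.36 and 9.52 in Canton S. It was thus well expressed in both genotypes and changed by 1.74 ± 0.10 (SE, adjusted p = 1.67e-08). A second Rbp9 probe set was at background in both, averaging 2.23, and the mean of both sets was not called, at 0.87. fru (a zinc-finger transcription factor of neuronal sex differences) had 5.12, 5.91 and 4.81 in Pb/2, against 6.75, 6.15 and 6.44 in Canton S. It fell by 1.17, a call lost without Pb/2 replicate 3, at -0.93. elav itself, the pan-neuronal member of the ELAV family, changed by -0.90 (adjusted p = 0.00158), under 2-fold, and passed it without Pb/2 replicate 3, at -1.01. fne, the remaining family member, was under the floor. For fru and elav BL15598 averaged 5.45 and 5.62, near Pb/2, and A2663/v averaged 6.28 and 5.94.

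**Figure D2:**
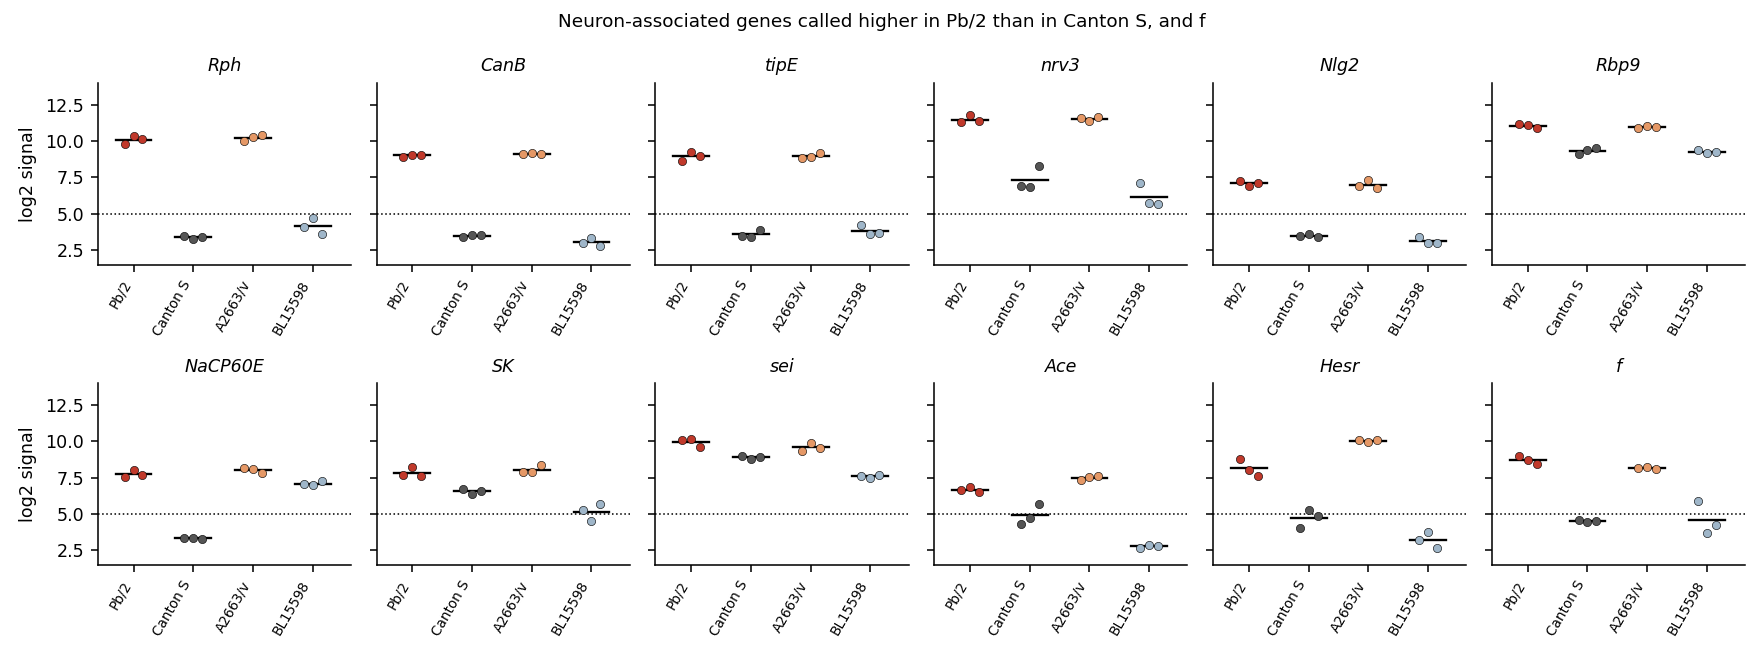
Log2 signal on each array for 11 neuron-associated genes called higher in Pb/2 and for f, in Pb/2, Canton S, A2663/v and BL15598 (3 points each, bars are means, dotted line at the floor). Rph, CanB, tipE, Nlg2 and f are over the floor on the arrays of both mutants and under it in Canton S, while NaCP60E is over it in BL15598 too.

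None of the 13 axon guidance and adhesion genes tested rose and 2 fell (2.95% and 2.53% of all genes tested). They were NetB and Con, and the list median was -0.18. Both passed the filter through Canton S alone. At adjusted p alone 1 member was higher and 3 were lower (10.0% and 18.9% of all genes tested). In A2663/v minus BL15598 4 were called higher and 1 lower (4.14% and 2.50% of all genes tested), with a median of 0.55. NetB (a netrin, a secreted guidance cue) had 4.40, 4.10 and 4.24 in Pb/2, against 7.90, 7.78 and 7.78 in Canton S, at least 7.06-fold lower. Con (connectin, a cell adhesion protein) lay near the floor, with a bound of at least 1.53-fold lower, and with raised values its change of -0.61 was not called. The netrin receptor fra changed by 0.33 and robo1, a Slit receptor, by -0.31, neither called.

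The other mutant pair was used to see which changes recurred on arrays not shared with this comparison. In A2663/v minus BL15598, 399 genes were called (6.64%), 249 higher (4.14%) and 150 lower (2.50%). Of the 177 rises in Pb/2, 87 were also called higher there, which is 49.2% of the Pb/2 list and 34.9% of the other. Of the 152 falls, 52 were also called lower, 34.2% of the Pb/2 list and 34.7% of the other. The calls opposed each other in 8 rises and 10 falls. This second pair also varied in digestive enzyme signal and in eIF-4A integrity. The mean digestive signal was 7.10, 3.63 and 7.87 in A2663/v, and at most 5.33 in BL15598. The eIF-4A difference between 3′ and 5′ probe sets was 2.66, 2.97 and 2.96 in A2663/v, against 2.07, 2.11 and 2.34 in BL15598. The part of either measure in the recurring calls was not tested.

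Many changes were of a different size in the second pair. The change in Pb/2 minus Canton S differed from that in A2663/v minus BL15598 in 77 of the 177 rises (43.5%) and 78 of the 152 falls (51.3%), and in 6.86% of all genes tested, by limma on the difference itself. That difference contains the change by which the called genes were chosen, so their shares are partly set by the choice and nothing is read from the gap to 6.86%. The rises had a median change of 1.10 in A2663/v minus BL15598, and the falls of -0.44. As a description, the changes in the pairs correlated at r = 0.654 across the 329 called genes and at r = 0.532 across all genes tested. The called genes were chosen by their change in Pb/2 minus Canton S, and the pairs share probe sets, alleles and the floor.

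Each called gene could also be placed by whether A2663/v and BL15598 lay nearer to Pb/2 or to Canton S. In 155 of 329 (47.1%), 98 rises and 57 falls, A2663/v stood with Pb/2 and BL15598 with Canton S. In 106 (32.2%), 50 rises and 56 falls, Canton S stood apart from the other 3 genotypes. In 52 (15.8%), 24 rises and 28 falls, Pb/2 stood apart. In the remaining 16 (4.86%), A2663/v stood with Canton S and BL15598 with Pb/2.

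**Figure D3:**
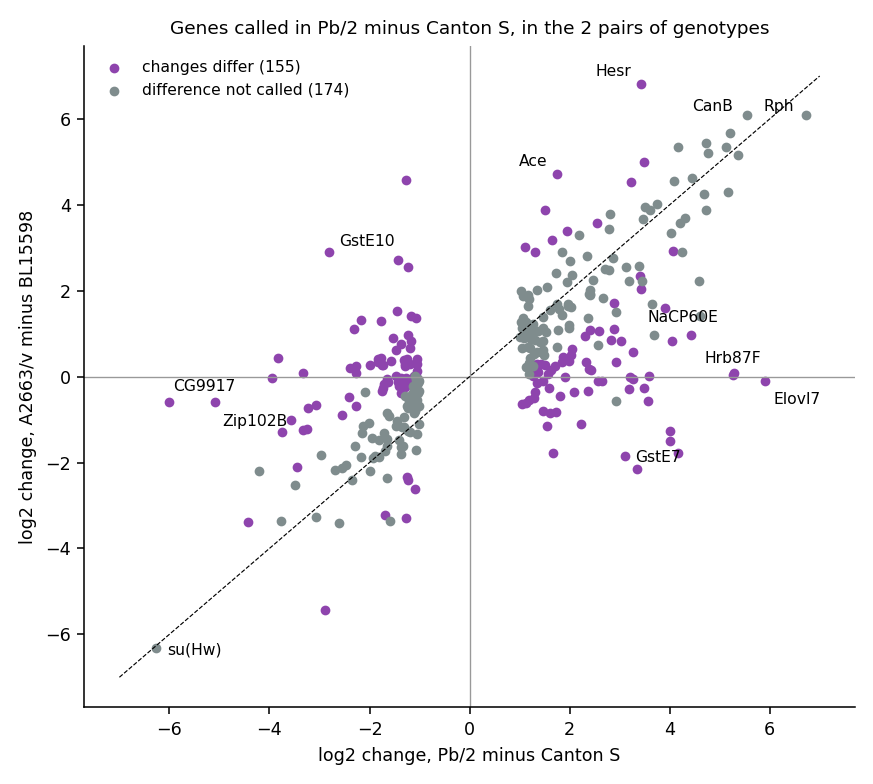
Log2 change of the 329 called genes in Pb/2 minus Canton S (horizontal axis) and in A2663/v minus BL15598 (vertical axis), with equal changes on the dashed line. Purple marks the 155 genes whose changes differed by the limma test and grey the other 174; Rph, CanB and su(Hw) lie near the line, and Hrb87F, Elovl7, CG9917 and Zip102B near 0 on the vertical axis.

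The largest rise after flooring belonged to a gene with low signal in Canton S alone. Hrb87F (an hnRNP A-type RNA-binding protein) had 12.65, 12.73 and 12.70 in Pb/2, against 8.04, 7.11 and 7.12 in Canton S. It changed by 5.27 ± 0.18 (SE, adjusted p = 3.20e-11). The means were 12.73 in A2663/v and 12.69 in BL15598, so that pair changed by 0.04.

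Elovl7 (a very long chain fatty acid elongase) behaved likewise, with 8.94, 8.96 and 9.04 in Pb/2, against 3.04, 3.02 and 3.15 in Canton S. It was at least 15.8-fold higher in Pb/2, and it averaged 8.56 in A2663/v and 8.65 in BL15598. NFAT (a transcription factor related to the calcineurin-regulated NFAT proteins) had 10.02, 10.14 and 9.82 in Pb/2, against 6.59, 6.59 and 7.01 in Canton S. Its change was 3.27 ± 0.12 (SE) here and -0.05 in the other pair.

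Further genes of this kind were CG6171, Obp44a and Inx7. CG6171 had 8.45, 8.50 and 8.67 in Pb/2, against 4.98, 5.51 and 4.38 in Canton S, with a mean of 8.63 in A2663/v and 8.60 in BL15598. Obp44a (an odorant-binding protein) had 9.45, 9.59 and 10.09 in Pb/2, against 6.16, 4.996 and 5.80 in Canton S, and changed by 4.06 ± 0.28 (SE). Inx7 (an innexin, a gap junction subunit) had 9.71, 9.46 and 9.66 in Pb/2, against 7.07, 7.13 and 6.71 in Canton S. For all of them every array of the other genotypes lay above every Canton S array, and the difference between the pairs passed the test, at 3.55, 3.22 and 2.76 (adjusted p at most 5.97e-05).

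**Figure D4:**
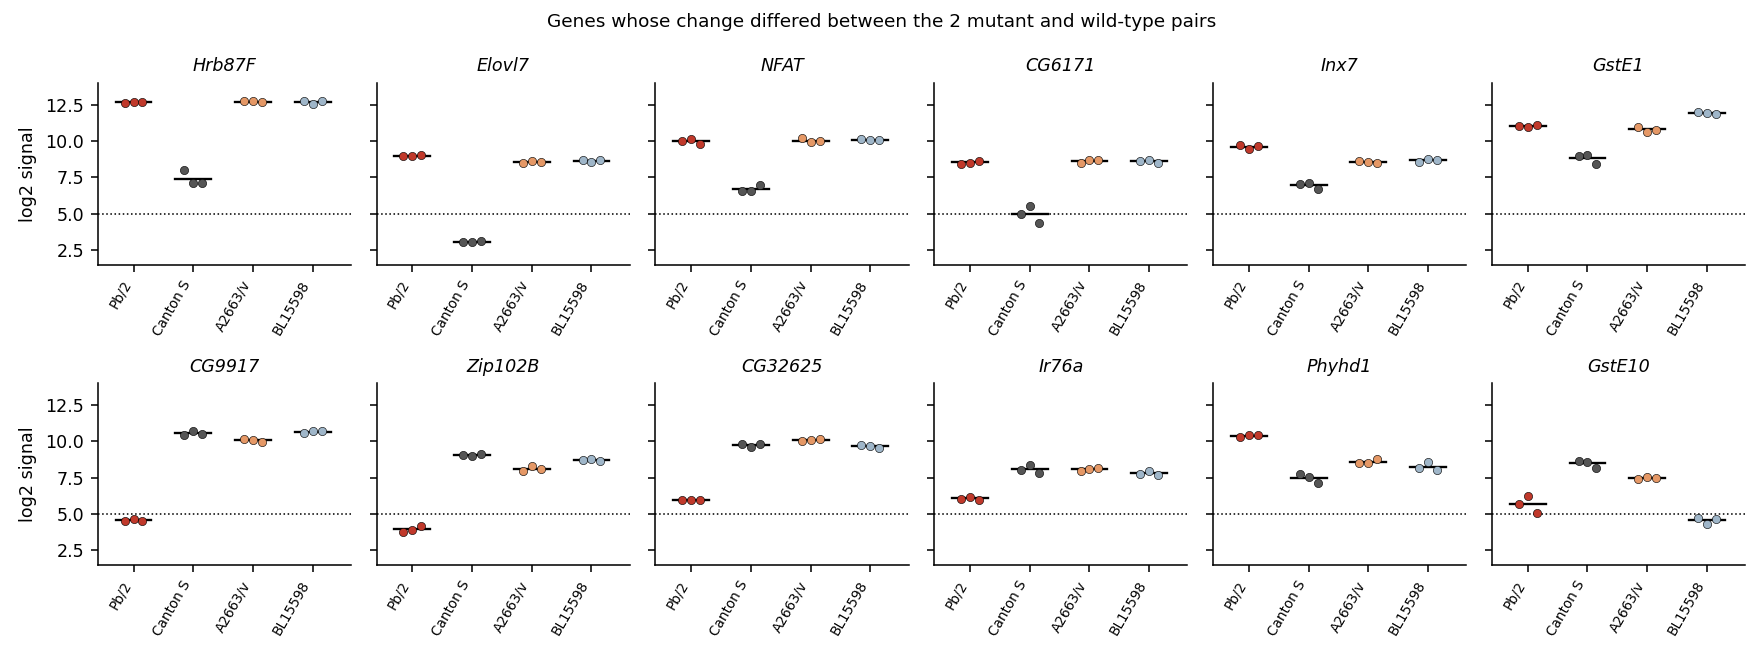
Log2 signal on each array for 12 genes whose change differed between the genotype pairs, in Pb/2, Canton S, A2663/v and BL15598 (3 points each, bars are means, dotted line at the floor). In the upper row Canton S lies below the other genotypes; in the lower row Pb/2 lies apart from the rest for CG9917, Zip102B, CG32625, Ir76a and Phyhd1, while GstE10 is low in Pb/2 and in BL15598.

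Several of the largest falls belonged to genes that were low in Pb/2 and not in the other 3 genotypes. CG9917 had 4.51, 4.68 and 4.51 in Pb/2, against 10.46, 10.75 and 10.52 in Canton S. It was at least 47.7-fold lower, and it passed the filter through Canton S alone. Its mean was 10.08 in A2663/v and 10.68 in BL15598, so the other mutant kept a high signal. Zip102B (a zinc transporter) had 3.79, 3.91 and 4.19 in Pb/2, against 9.08, 8.97 and 9.13 in Canton S, at least 16.6-fold lower. A2663/v averaged 8.12 and BL15598 8.72.

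CG32625 had 5.94, 5.99 and 5.94 in Pb/2, against 9.85, 9.65 and 9.85 in Canton S, a fall of 3.83 on the log2 scale. Ir76a (an ionotropic receptor of the chemosensory family) had 6.02, 6.19 and 6.00 in Pb/2, against 8.04, 8.37 and 7.80 in Canton S, a fall of 2.00. Both changed by less than 2-fold in the other pair, by 0.43 and 0.28. In the opposite direction, Phyhd1 (a phytanoyl-CoA dioxygenase domain protein) had 10.28, 10.47 and 10.46 in Pb/2, against 7.75, 7.53 and 7.13 in Canton S. It changed by 2.93 ± 0.16 (SE), and by 0.35 in the other pair (adjusted p of the difference 2.11e-06).

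A second set of falls was shared with A2663/v. CG42565 had 6.55, 6.09 and 6.62 in Pb/2, against 10.86, 11.001 and 10.69 in Canton S, a fall of 4.43, and it fell by 3.38 in A2663/v. GstZ1 (a zeta-class glutathione transferase of tyrosine breakdown) had 5.73, 6.33 and 6.44 in Pb/2, against 8.94, 8.86 and 8.53 in Canton S. It fell by 2.61 here and by 3.40 in A2663/v. The falls of CG4210, CG6023, CG6293 and CG32816, between 2.29 and 2.54 here, were also called in A2663/v, and their differences between the pairs did not pass the test (adjusted p 0.156 to 0.869).

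The remaining falls of this size had other patterns. CG4950 had 4.44, 4.29 and 5.44 in Pb/2, against 7.87, 7.66 and 7.84 in Canton S, a fall of 3.07 that was not called in A2663/v. CG8888 fell by 2.31 in Pb/2 and was 1.10 higher in A2663/v than in BL15598, a difference of -3.41 between the pairs. The rises CG32017 (at least 15.9-fold) and CG17778 (at least 15.5-fold), neither with a role given here, and CG6329 (3.22 ± 0.26, SE) were called in A2663/v too. A second CG6329 probe set, dimmer in Pb/2, averaged 6.77 in Pb/2 and 5.95 in Canton S, a difference of 0.82 and thus under 2-fold.

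Germline and oocyte genes were mostly level. None of the 26 tested rose and 2 fell, exu and Pxt (2.95% and 2.53% of all genes tested), with a list median of -0.05. exu (exuperantia, needed to localise bicoid mRNA) had 7.52, 7.45 and 7.56 in Pb/2, against 8.99, 8.99 and 8.31 in Canton S, a fall of 1.25. A second exu probe set was at background, and the mean of both was not called, at -0.54. Pxt (a peroxidase with prostaglandin synthase activity in egg chambers) had 9.42, 9.87 and 9.63 in Pb/2, against 10.86, 10.99 and 10.65 in Canton S, a fall of 1.19. The oocyte genes osk, grk and bcd changed by 0.03, 0.08 and 0.14, with none called.

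Yolk and vitelline membrane genes gave no call. Of the 11 tested, 5 had an unadjusted p under 0.05 by limma, beside 2429 of all 6009 genes tested. At adjusted p alone 2 were lower and none higher (18.9% and 10.0% of all genes tested), and the list median was 0.18. Pb/2 lay wholly below Canton S in 4 members and wholly above in none (25.7% and 13.0% of all genes tested). Vm34Ca, a vitelline membrane protein, had 7.92, 10.41 and 11.51 in Pb/2, against 8.90, 9.75 and 9.17 in Canton S. Its lowest and its highest value were thus both Pb/2 arrays. Without Pb/2 replicate 1 alone 2 of the 11 were called. Without Pb/2 replicates 1 and 2, 3 of the 11 were called higher, Vm34Ca not among them at 2.24 (adjusted p = 0.108). In A2663/v minus BL15598, 7 of the 11 fell (2.50% of all genes tested fell there) with a list median of -1.55, and the difference between the pairs passed the test in 7. For Vm34Ca that difference was 6.92, its mean being 5.16 in A2663/v and 11.40 in BL15598.

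Several groups on chromatin and genome defence showed few or no calls, where 5.48% of all genes tested were called. Of 18 insulator protein genes only su(Hw) was called; Cp190 changed by 0.08 and mod(mdg4) by 0.27. Of 23 Polycomb and Trithorax group genes 1 fell, Caf1-55 (a histone-binding subunit of several chromatin complexes). It had 9.65, 9.88 and 9.94 in Pb/2, against 11.09, 10.92 and 10.81 in Canton S, a fall of 1.11; without Pb/2 replicates 1 and 2 it was just under 2-fold, at -0.997. None of the 26 piRNA pathway genes, which silence transposons in the germline, was called by limma with the 2-fold minimum. At an unadjusted p under 0.05, 15 of them passed, beside 2429 of all 6009 genes tested. At adjusted p alone 9 were higher and 1 lower (10.0% and 18.9% of all genes tested), with a list median of 0.15. Of these, moon, a factor of piRNA cluster transcription, had the largest change, 0.90, and nxf2, of the nuclear silencing complex, was the one lower, at -0.71. Moon and nxf2 were picked after their values were seen, and moon was called without Pb/2 replicates 1 and 2, at 1.06.

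Genes of division and genome integrity gave few calls, where 5.48% of all genes tested were called. Among 21 DNA damage and repair genes, 1 rose and 1 fell. mus101 (the TopBP1 homologue) had 6.87, 6.82 and 7.11 in Pb/2, against 5.81, 5.77 and 5.85 in Canton S, a change of 1.13. mre11 (a nuclease of double-strand break repair) had 7.83, 7.90 and 8.21 in Pb/2, against 9.03, 9.06 and 9.02 in Canton S, a fall of 1.06. Its call was lost without Pb/2 replicate 1, at -0.98, which left 1 call in the list. Without Pb/2 replicates 1 and 2 it was under 2-fold, at -0.83. BL15598 averaged 7.81 and A2663/v 8.10, so mre11 was high in Canton S alone. Of 22 cell cycle genes, 12 meiosis genes, 15 autophagy genes, 26 proteasome genes and 69 mitochondrial ribosomal protein genes none was called by limma. At an unadjusted p under 0.05, 6, 7, 7, 7 and 22 of them passed, beside 2429 of all 6009 genes tested. At adjusted p alone 10.0% of all genes tested were higher and 18.9% lower. At that threshold 5 of the 12 meiosis genes were lower and none higher, with a list median of -0.22 and changes down to -0.90. Of the 69 mitochondrial ribosomal protein genes 11 were lower and 1 higher, with a median of -0.13. Single calls appeared for meiosis without Pb/2 replicate 3 or Canton S replicate 2, and for mitochondrial ribosomal proteins without Pb/2 replicate 1 or Canton S replicate 3. Among 12 apoptosis and engulfment entries only scaf fell, a serine protease homologue not itself a death regulator. It had 3.91, 5.30 and 5.05 in Pb/2, against 7.10, 7.21 and 7.11 in Canton S. BL15598 averaged 4.66 and A2663/v 4.85, so scaf was high in Canton S alone. Without Pb/2 replicate 2, or with the digestive signal as a covariate, the count of calls in that list was 2.

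Detoxification families held calls in both directions. Of 22 glutathione transferase genes 4 rose and 2 fell (2.95% and 2.53% of all genes tested), with a list median of -0.18. GstE7 had 7.53, 7.60 and 6.76 in Pb/2, against 3.84, 4.51 and 4.20 in Canton S, at least 4.91-fold higher. GstE1 had 11.06, 10.99 and 11.11 in Pb/2, against 8.97, 9.06 and 8.46 in Canton S, a change of 2.23. GstE10 had 5.69, 6.28 and 5.07 in Pb/2, against 8.65, 8.61 and 8.18 in Canton S, a fall of 2.80.

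All 3 moved the opposite way in the other pair, GstE7 and GstE1 lower by 1.84 and 1.11 and GstE10 higher by 2.90, each called. GstT4 (1.61) and GstE3 (1.27) also rose, GstE3 not without Pb/2 replicates 1 and 2, at 0.91; these and Cyp6a17 were picked after their values were seen. Of 20 cytochrome P450 genes 2 rose and 3 fell (2.95% and 2.53% of all genes tested). Cyp6a20 had 3.29, 2.95 and 3.25 in Pb/2, against 7.17, 6.71 and 6.93 in Canton S, at least 3.83-fold lower, with a like fall of 3.36 in A2663/v. Cyp4g1 (an enzyme of cuticular hydrocarbon synthesis) rose by 1.98, and Cyp6a17 was at least 1.81-fold higher. With raised values the change of Cyp6a17, 0.85, was not called. Cyp6a23 fell by 1.81 and Cyp12b2 by 1.10, the last lost without Pb/2 replicate 1, at -0.77. Without Pb/2 replicates 1 and 2 Cyp12b2 stood at -0.34 (adjusted p = 0.273), and its call was also lost with raised values, at -0.94.

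Of 13 heat shock genes tested 2 rose and none fell (2.95% and 2.53% of all genes tested), with a list median of 0.09. stv (starvin, a BAG co-chaperone) had 10.63, 10.77 and 11.40 in Pb/2, against 9.16, 8.18 and 9.56 in Canton S, a change of 1.96. Hsp68 had 10.78, 11.11 and 11.83 in Pb/2, against 9.81, 8.86 and 9.70 in Canton S, a change of 1.78. At adjusted p alone 6 were higher and 2 lower (10.0% and 18.9% of all genes tested). Pb/2 replicate 3 was the highest array for both, and without Pb/2 replicates 1 and 2 the count of rises was 5, with Hsp26 (1.22), Hsp27 (1.13) and DnaJ-1 (1.12), all 3 picked after their values were seen.

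Calls among genes of blood cells and immunity went both ways. Among 13 haemocyte and basement membrane genes 1 rose and 2 fell (2.95% and 2.53% of all genes tested). NimC4 (a receptor for engulfing dead cells) had 6.03, 5.10 and 6.14 in Pb/2, against 7.73, 7.99 and 8.33 in Canton S, a fall of 2.26. NimC1 (a phagocytosis receptor of haemocytes) had 4.18, 3.62 and 4.77 in Pb/2, against 6.59, 6.64 and 6.57 in Canton S. It was at least 3.04-fold lower in Pb/2. For NimC4 and NimC1 BL15598 averaged 6.35 and 5.19, nearer to Pb/2 than to Canton S, and A2663/v averaged 5.66 and 4.70. Pxn (peroxidasin, of the basement membrane) had 7.78, 7.96 and 8.23 in Pb/2, against 6.20, 6.26 and 7.01 in Canton S, a rise of 1.501, and the mean with its second probe set, at background, was not called, at 0.76. Of the 5 haemocyte markers on the array Hml, He and Sr-CI were under the floor on all 6 arrays, and only Pxn was over it on all of them. The mean over the 5 was 3.94 to 4.23 in Pb/2, against 4.26 to 4.59 in Canton S. That mean includes Pxn and NimC1 themselves, so it is not a separate measure of haemocyte content. The part of haemocyte content in these changes was not tested. Mtk (metchnikowin, an antimicrobial peptide) was the single immune gene called of 11, at least 1.91-fold higher, and with raised values its change of 0.93 was not called.

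**Figure D5:**
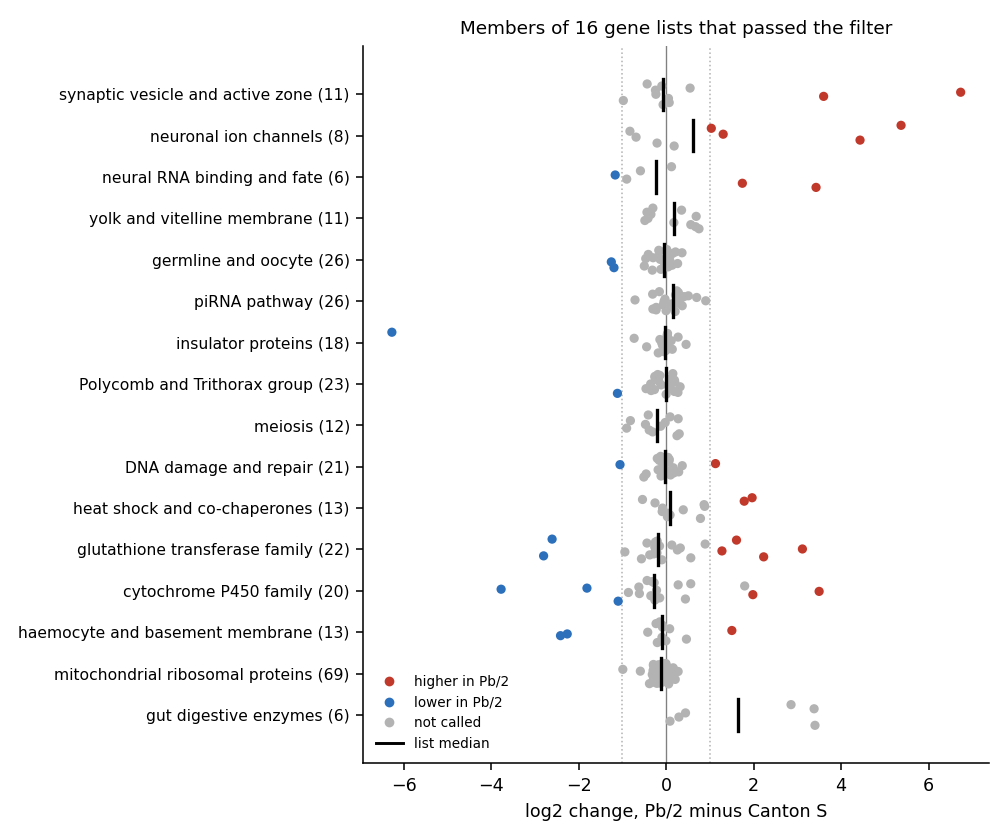
Log2 change, Pb/2 minus Canton S, of the tested members of 16 gene lists (number of members in brackets), with red for called higher, blue for called lower, grey for not called and a black bar at each median. Rph, tipE and NaCP60E lie far to the right of the other members of their lists, su(Hw) far to the left of the insulator proteins, and the yolk, piRNA, meiosis and mitochondrial ribosomal protein genes lie within 2-fold.

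The remaining lists gave at most 2 calls each, where 5.48% of all genes tested were called. Of 5 innexins Inx7 rose and Inx3 fell by 1.03, the call of Inx3 lost without Canton S replicate 1 or 2, at -0.930 and -0.998. Of 6 testis genes mia (a testis-specific TAF6 homologue) fell by 1.38, a call lost without Pb/2 replicates 1 and 2, at -0.93, and vis (a homeodomain protein) was at least 1.22-fold lower, not called with raised values. Of 36 cytoplasmic ribosomal protein genes the paralogues RpS10a (at least 1.49-fold higher) and RpS19b (lower by 1.02) were called; RpS10a was not called with raised values, and RpS19b not without Pb/2 replicate 2, Canton S replicate 2 or Canton S replicate 3, at -0.83 to -0.99, or without Pb/2 replicates 1 and 2, at -0.69. Of 7 odorant and gustatory receptor and binding protein genes Obp44a rose and Ir76a fell. None was called by limma among 15 ecdysone, 15 fat body, 10 follicle cell, 15 muscle and 19 niche signalling genes. Nor was any of 4 UDP-glycosyltransferase, 2 cuticle and 2 neuropeptide genes and 1 chorion gene. In that order, 8, 4, 4, 6, 7, 2, 0, 1 and 0 passed at an unadjusted p under 0.05. Of all 6009 genes tested 2429 did. Without Pb/2 replicate 2, or without Pb/2 replicates 1 and 2, 1 neuropeptide gene was called. Of the 4 pump genes tested only nrv3 was called, and no turandot or lysozyme gene passed the filter.

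Gut genes had the highest list median without a call. For 6 digestive enzyme genes that passed the filter it was 1.65, and none was called by limma. At an unadjusted p under 0.05, 1 of them passed, beside 2429 of all 6009 genes tested. alphaTry had 7.95, 9.35 and 2.75 in Pb/2, against 2.18, 2.18 and 5.54 in Canton S, so the arrays overlapped. Without Pb/2 replicate 3, 3 of the 6 were called.

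A few calls rested on mutant arrays that differed strongly. CG43134 had 5.11, 6.78 and 2.57 in Pb/2, against 9.30, 9.02 and 8.76 in Canton S. CG5399 had 8.41, 8.09 and 4.35 in Pb/2, against 2.34, 2.40 and 5.19 in Canton S, so the arrays overlapped; its call (adjusted p = 0.0479) was lost without either of Pb/2 replicates 1 and 2 and without either of Canton S replicates 1 and 2. CG7203 had 6.11, 8.08 and 9.40 in Pb/2, against 2.76, 3.02 and 3.63 in Canton S.

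CG16762 had 7.34, 8.17 and 5.48 in Pb/2, against 2.42, 2.39 and 2.38 in Canton S. In CG5399 and CG16762 the low mutant array was replicate 3, the one with low digestive enzyme signal, and neither was called without replicates 1 and 2 (1.04 and 3.09). CG12998 (4.58) and CG15155 (4.04), 2 of the 15 largest rises, also were not called without them, and CG12998 not without Pb/2 replicate 2 or 3 or Canton S replicate 1 or 2, at 3.61 to 4.70. In all, 273 of the 329 calls, 143 rises and 130 falls, were kept without Pb/2 replicates 1 and 2, and 346 genes were then called. The median range over the 3 arrays of a genotype was 0.25 in Pb/2 and 0.26 in Canton S across the genes tested.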

How the data were processed

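RNA of 12 ovary pools was amplified and hybridised to arrays of 18952 probe sets. The authors deposited log2 values, made with Partek 6.5 and GCRMA per the submitters' processing notes, which state neither settings nor a genome build. Of the probe sets, 13647 name 1 gene, 402 several and 4720 none, and 183 are controls; 13544 symbols were updated through a RefSeq table (Release 6 plus ISO1 MT). Differences were fitted with limma 3.58.1 in R 4.3.3 on all 12 arrays with 1 mean per genotype and a variance trend, with Benjamini-Hochberg adjustment over 6009 genes. The code was tested on simulated data. Arrays carry no depth, so 3 arrays per genotype limit the precision, and p-values measure the spread between biological replicates. Replicate numbers did not pair the arrays: residuals of same-numbered arrays correlated at -0.25 to 0.15. Named genes were su(Hw) and the marker genes, the 15 largest rises and falls after flooring, up to 4 called members of each of 41 lists, the 8 largest rises and falls that differed from the second pair, the 4 called genes with the widest mutant range, and 5 genes fixed by name. The members and lists were chosen with earlier results of these data known. The pattern for cytochrome P450 genes was narrowed afterwards to leave out cyclophilins. Alternatives were other filters, scalings, probe set rules, variance priors and thresholds, a replicate block, the digestive signal as a covariate and leaving out arrays. No sequence is shown.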

Additional observations from a re-analysis of the deposited data

Results flagged for a closer look

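For 36 named genes the change in Pb/2 minus Canton S differed from that in A2663/v minus BL15598 by the limma contrast of both changes, at an adjusted p under 0.05 and at least 2-fold. Values are the log2 change in Pb/2 minus Canton S less that in A2663/v minus BL15598. It was higher in Pb/2 minus Canton S for Elovl7 (6.00), Hrb87F (5.23), GstE7 (4.96), CG6171 (3.55), NaCP60E (3.47), GstE1 (3.33), NFAT (3.32), Obp44a (3.22), Inx7 (2.76), Phyhd1 (2.59), GstE3 (1.26), CG11638 (1.07) and exu (1.07). It was lower by the most for GstE10 (-5.70), CG9917 (-5.41), Zip102B (-4.50), CG32625 (-4.25), Con (-3.50), CG8888 (-3.41) and Hesr (-3.40). Smaller negative differences were found for Ace (-2.97), scaf (-2.58), NetB (-2.57), CG4950 (-2.40), Pxn (-2.37), Ir76a (-2.28), mia (-2.15), Trf4-1 (-2.03), fru (-1.995), NimC1 (-1.93), SK (-1.60), NimC4 (-1.57), Cyp6a17 (-1.499), mre11 (-1.35), CG6329 (-1.32) and CG42565 (-1.05). For genes under the floor on one side the size depends on how background was set. The genes differ in which genotype stood apart, as described above for Hrb87F, CG9917 and GstE10, and for Ace and Hesr the change had the same direction in both pairs and was larger in A2663/v minus BL15598.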

How the results depend on the processing

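Of the alternatives run, the threshold moved the counts by over 1.5 times: with no fold minimum 1736 genes were called, 603 higher and 1133 lower, in place of 329, 177 and 152. Under the other settings the total ran from 266 (floor at log2 6) to 412 (no filter), the share of rises from 51.6% to 56.9%, and no named gene reversed. Leaving out single arrays gave 313 to 383 calls in all, 162 to 198 rises and 142 to 185 falls; 396 to 446 genes then differed between the pairs, and 133 to 156 were called in both. The lone array left without Pb/2 replicates 1 and 2 is assumed to vary like the others. With the replicate number as a block (replicate block) 332 genes were called, 328 of them as before, and of the named genes only CG5399 lost its call. With the digestive signal as a covariate CG5399 stood at 0.95, CG12998 at 2.36, CG7203 at 3.45 (adjusted p = 0.0813), Cyp12b2 at -0.77, RpS19b at -0.84, mre11 at -0.95, Inx3 at -0.98 and GstE3 at 0.93, all without a call, and ct was called, at -1.02. Median centring and cyclic loess shifted the median change of all genes by at most 0.06, each giving 325 calls, with mre11, Inx3, RpS19b and CG5399 no longer called. With values under 5 raised to 5, 287 of the 329 calls were kept. Differences below the floor cannot be measured, and a gene absent from both genotypes was not tested. The causes of lost calls were not tested further.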

Other observations

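Neighbouring genes were both called in 11 of the 3505 adjacent pairs in which both were tested, by the order of the RefSeq table. The direction was the same in 7 pairs and opposite in 4. Of the 305 tested neighbours of a called gene 7.21% were called, beside 4.35% of the tested neighbours of any tested gene. The pairs below were picked after their values were seen. CanB and SK, both higher in Pb/2, are such neighbours, as are CG11638 (7.56, 8.00 and 7.21 in Pb/2, against 4.38, 4.19 and 3.95 in Canton S) and CG32814 (6.29, 6.36 and 6.29 in Pb/2, against 3.66, 3.38 and 3.52 in Canton S). The second pair was called in A2663/v minus BL15598 too, at 2.34 and 2.48.

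CG12112 and Trf4-1 (a non-canonical poly(A) polymerase) both fell. CG12112 had 6.57, 6.95 and 7.12 in Pb/2, against 8.83, 8.80 and 8.44 in Canton S. Trf4-1 had 2.65, 2.63 and 3.36 in Pb/2, against 6.25, 6.22 and 5.90 in Canton S, at least 2.18-fold lower. veil and NT5E-2, related 5′-nucleotidase genes, both fell as well, with changes of -1.599 and -1.46, the call of veil being lost without Pb/2 replicate 1 or 3 or Canton S replicate 1 or 2, at -1.21 to -1.58, and without Pb/2 replicates 1 and 2, at -1.63. Probe sets of related neighbours may share sequence, which was not tested.

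In 4 adjacent pairs the directions were opposite. Among them were Zip102B (at least 16.6-fold lower) with Rnf11 (1.31) and GstE10 (-2.80) with GstE1 (2.23). Cyp6a23 (-1.81) with Cyp6a17 (at least 1.81-fold higher, not called with raised values) was another. Act88F, the actin of indirect flight muscle, was over the floor on a single one of the 6 arrays, at 6.01 in Pb/2 replicate 3. The yolk protein genes Yp1, Yp2 and Yp3 changed by 0.56, 0.18 and -0.49, none called, and their lowest Pb/2 array was replicate 1 in each case.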
